A study of Mus musculus with 12 samples.

Results

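The genes described here run the secretory machinery of the endoplasmic reticulum (ER) and its stress responses. They were chosen by name as 43 genes of the unfolded protein response, ER chaperones, disulfide isomerases, ER-associated degradation, the translocon and signal peptidase. All 43 were present among the 23420 genes counted in every library, and all 43 passed the filter on low counts that left 13693 genes for testing. They were followed across 6 groups of mouse liver, because transcripts of secreted plasma proteins were lower in livers that had lost Gdown1.

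Hepatocytes secrete most plasma proteins, and each of these proteins enters the ER through the Sec61 channel, loses its signal peptide and is folded by chaperones and disulfide isomerases. When unfolded protein accumulates, the membrane sensors Atf6, Ern1 (IRE1) and Eif2ak3 (PERK) signal to the nucleus. Ern1 splices Xbp1 mRNA, Eif2ak3 phosphorylates the translation factor eIF2 so that Atf4 is translated, and Atf6 is cut to release a transcription factor. The resulting factors raise transcription of chaperones, of degradation factors and, through Atf4, of amino acid metabolism genes. The Atf4 branch is shared with other eIF2 kinases and is called the integrated stress response.

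The libraries were made from total RNA of C57BL/6 liver with a stranded SMARTer kit, and each of the 6 groups had 2 libraries. Gdown1, the product of Polr2m, binds RNA polymerase II. All groups carried floxed Gdown1 alleles. FF livers (7 weeks) kept them intact, and KO livers (7 weeks) also carried Alb-Cre. This Cre deletes floxed DNA where the albumin promoter is active, and the labels do not state which liver cells keep the gene. The p53KO (8 weeks, p53-/-) and DKO (8 weeks, p53-/- with Alb-Cre) livers repeated this pair without p53. The p53KO TAM and DKO TAM livers were also p53-/- and were taken 24 hours after tamoxifen; DKO TAM carried Alb-CreERT2, which tamoxifen switches on, and the age of these mice is not given. The control genotypes name no Cre, so effects of Cre and of Gdown1 loss cannot be told apart. The titles of the FF, KO and TAM libraries each carry a number of their own, but the labels do not state that the libraries of a group are separate animals, so p-values here cover only the variation among libraries, which may be technical.

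Several of these genes carry known stress motifs in their promoters. In RefSeq promoters of the GRCm38.p6 build, from 250 bases before to 50 after each start, 36 of the 43 genes had an entry. Each sequence is written 5′ to 3′ on the gene's strand, and capitals mark the fixed letters of the motif, with 8 bases shown on either side, or their complement where the motif lies on the other strand. The ER stress response element, CCAAT and CCACG with 9 bases between them, binds NF-Y and the cleaved Atf6 or Xbp1 protein. It is shown for the main ER Hsp70 (Hspa5), the ER Hsp90 (Hsp90b1), the lectin chaperone Calr, the co-chaperone Dnajc3 and the ubiquitin ligase Syvn1.
Hspa5, chr2:34772017-34772051, plus strand: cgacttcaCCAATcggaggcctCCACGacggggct
Hsp90b1, chr10:86705630-86705664, minus strand: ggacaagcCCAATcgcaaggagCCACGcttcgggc
Calr, chr8:84847067-84847101, minus strand: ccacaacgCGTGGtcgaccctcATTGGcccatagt
Dnajc3, chr14:118937819-118937853, plus strand: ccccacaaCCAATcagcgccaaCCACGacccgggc
Syvn1, chr19:6046524-6046558, plus strand: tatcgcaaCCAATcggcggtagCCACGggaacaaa
The next windows hold the amino acid response element, TGATGNAA, to which Atf4 dimers bind; that of Herpud1 also holds the shorter ER stress element, ATTGG and CCACG with 1 base between them. They are shown because these 3 genes gave the largest changes of the whole set after Gdown1 loss in the livers without p53 at 8 weeks, and in opposite directions.
Herpud1, chr8:94386309-94386395, plus strand: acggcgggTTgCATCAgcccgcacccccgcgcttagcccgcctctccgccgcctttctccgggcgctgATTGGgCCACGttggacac
Chac1, chr2:119351041-119351064, plus strand: ccctgccgTTgCATCActcctgcc
Asns, chr6:7693217-7693240, minus strand: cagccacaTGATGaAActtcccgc
Searched on both strands, the long ER stress element was found in 0.119% of 32851 promoters of this length and in 8 of the 36 genes (Calr, Canx, Creld2, Dnajc3, Hsp90b1, Hspa5, Pdia6 and Syvn1). The short element was found in 0.0365% of promoters, and among these genes in Dnajb11 and Herpud1. The amino acid response element was found in 3.97% of promoters and in Asns, Chac1, Herpud1 and Trib3. The matches of the long and the short element lay in different genes. A match is a description of the letters and not evidence of binding.

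Library totals ranged from 4939408 to 8776369 counts. Levels are given as CPM, counts relative to library size scaled by TMM, which sets libraries against each other so that most genes do not change, and log2 fold changes are relative to that level. Polr2m stood at 100.3 and 96.7 CPM in FF and 64.7 and 59.4 in KO, at 89.1 and 102.7 in p53KO and 58.1 and 60.0 in DKO, and at 75.9 and 78.7 in p53KO TAM and 65.9 and 54.6 in DKO TAM. Its test passed for KO and DKO and missed for DKO TAM (adjusted p = 0.0627, edgeR). In whole liver, fewer cells of a type and less RNA per cell cannot be told apart. All 8 hepatocyte markers were detected in every library, and their sum was lower in each deleted group, at 43011 to 48889 CPM in KO against 86087 to 91940 in FF, 24211 to 27544 in DKO against 103022 to 103042 in p53KO, and 29515 to 31121 in DKO TAM against 92255 to 94328 in p53KO TAM. Alb made up most of this sum in every group. The median log2 fold change over the 8 markers was -0.81 in KO, -1.79 in DKO and -0.57 in DKO TAM.

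Across the whole set the balance lay towards lower levels after Gdown1 loss. A gene was called at a Benjamini-Hochberg adjusted p under 0.05 over all tested genes in edgeR's quasi-likelihood test. In KO against FF, 9 of the 43 genes were lower and 1 was higher, beside 7.88% lower and 6.92% higher of all tested genes; the median log2 fold change was -0.21 for the set and 0.02 for all genes. In DKO against p53KO, 29 were lower and 3 higher, beside 25.7% lower and 25.7% higher of all tested genes, with medians of -0.62 and 0.01. In DKO TAM against p53KO TAM, 20 were lower and none higher, beside 10.1% lower and 8.61% higher, with medians of -0.37 and 0.01. Calls fell over all tested genes when single libraries were left out in KO or DKO TAM, so the medians are given instead. In DKO TAM the median of the set then ran from -0.57 (without DKO TAM replicate 2) to -0.26 (without DKO TAM replicate 1). In KO it ran from -0.23 (without FF replicate 2) to -0.14 (without FF replicate 1). The median of all genes lay between -0.01 and 0.04 in these fits.

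These directions are relative to the typical gene of the same liver. When libraries were set against each other by their totals alone, the median of all genes moved to 0.28, 0.78 and 0.36 in the 3 comparisons and the median of the set to 0.05, 0.15 and -0.02. The distance between the set and all genes stayed at -0.23, -0.63 and -0.38 under both scalings. With totals alone, 3 of the genes were lower and 11 higher in DKO (6.98% and 25.6% of the set), beside 7.0% lower and 64.4% higher of all tested genes, and 15 of the 32 genes called on the TMM scale changed sign there. Another 11 of the 32 kept their sign but were no longer called: Xbp1, Atf4, Atf5, Dnajc3, Canx, Pdia3, Sel1l, Edem2, Sec61g, Tram1 and Spcs3. Ern1, Chac1 and Herpud1 remained lower and Ddit3, Asns and Ssr2 remained higher in all 14 other settings, except that Ssr2 missed without p53KO replicate 2. In the KO and TAM comparisons no called gene changed sign. Of the 20 calls in DKO TAM, 7 held in all 14 other settings (Ern1, Xbp1, Atf5, Dnajc3, Herpud1, Syvn1 and Tram1).

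**Figure D1:**
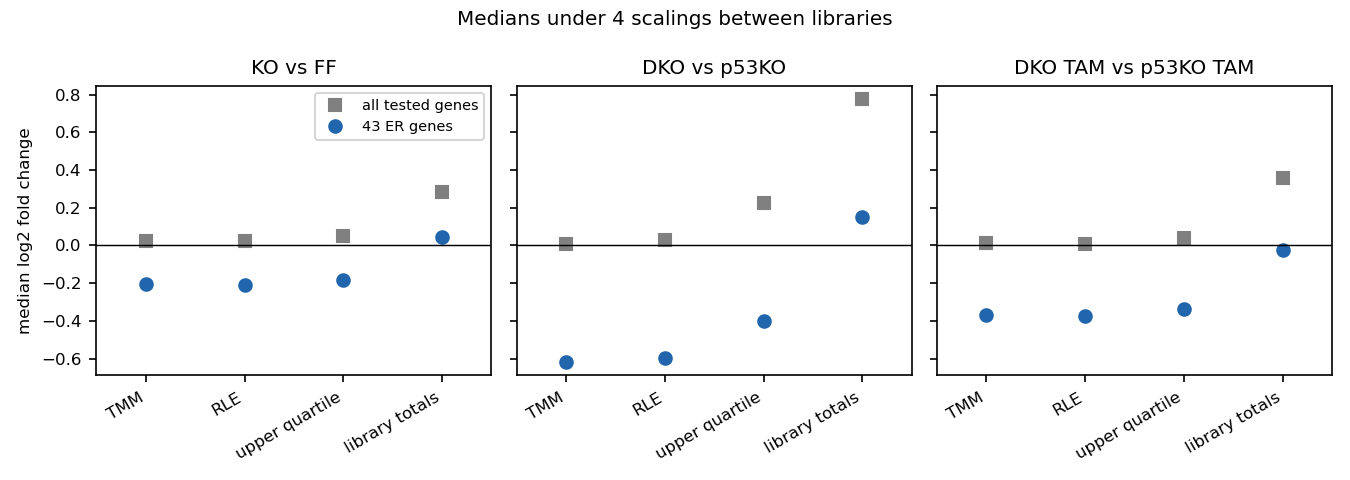
Median log2 fold change (vertical axis) of the 43 ER genes (circles) and of all tested genes (squares) under 4 ways of scaling libraries, for the 3 comparisons of Gdown1 loss. Both medians shift upwards together with library totals alone, and the circles lie below the squares in every case.

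Counted without a test, the libraries of the 2 groups did not overlap for most of the genes, as for most of all tested genes. The set differed in direction: in each comparison a larger share lay below, and a smaller share above, than of all tested genes. In KO, 23 of the 43 genes were below and 7 above both FF libraries, against 27.3% and 28.9% of all tested genes. In DKO, 33 of the 43 were below and 6 above both p53KO libraries, against 37.3% and 39.7%. In DKO TAM, 27 of the 43 were below and none above both p53KO TAM libraries, against 29.3% and 30.2%.

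**Figure D2:**
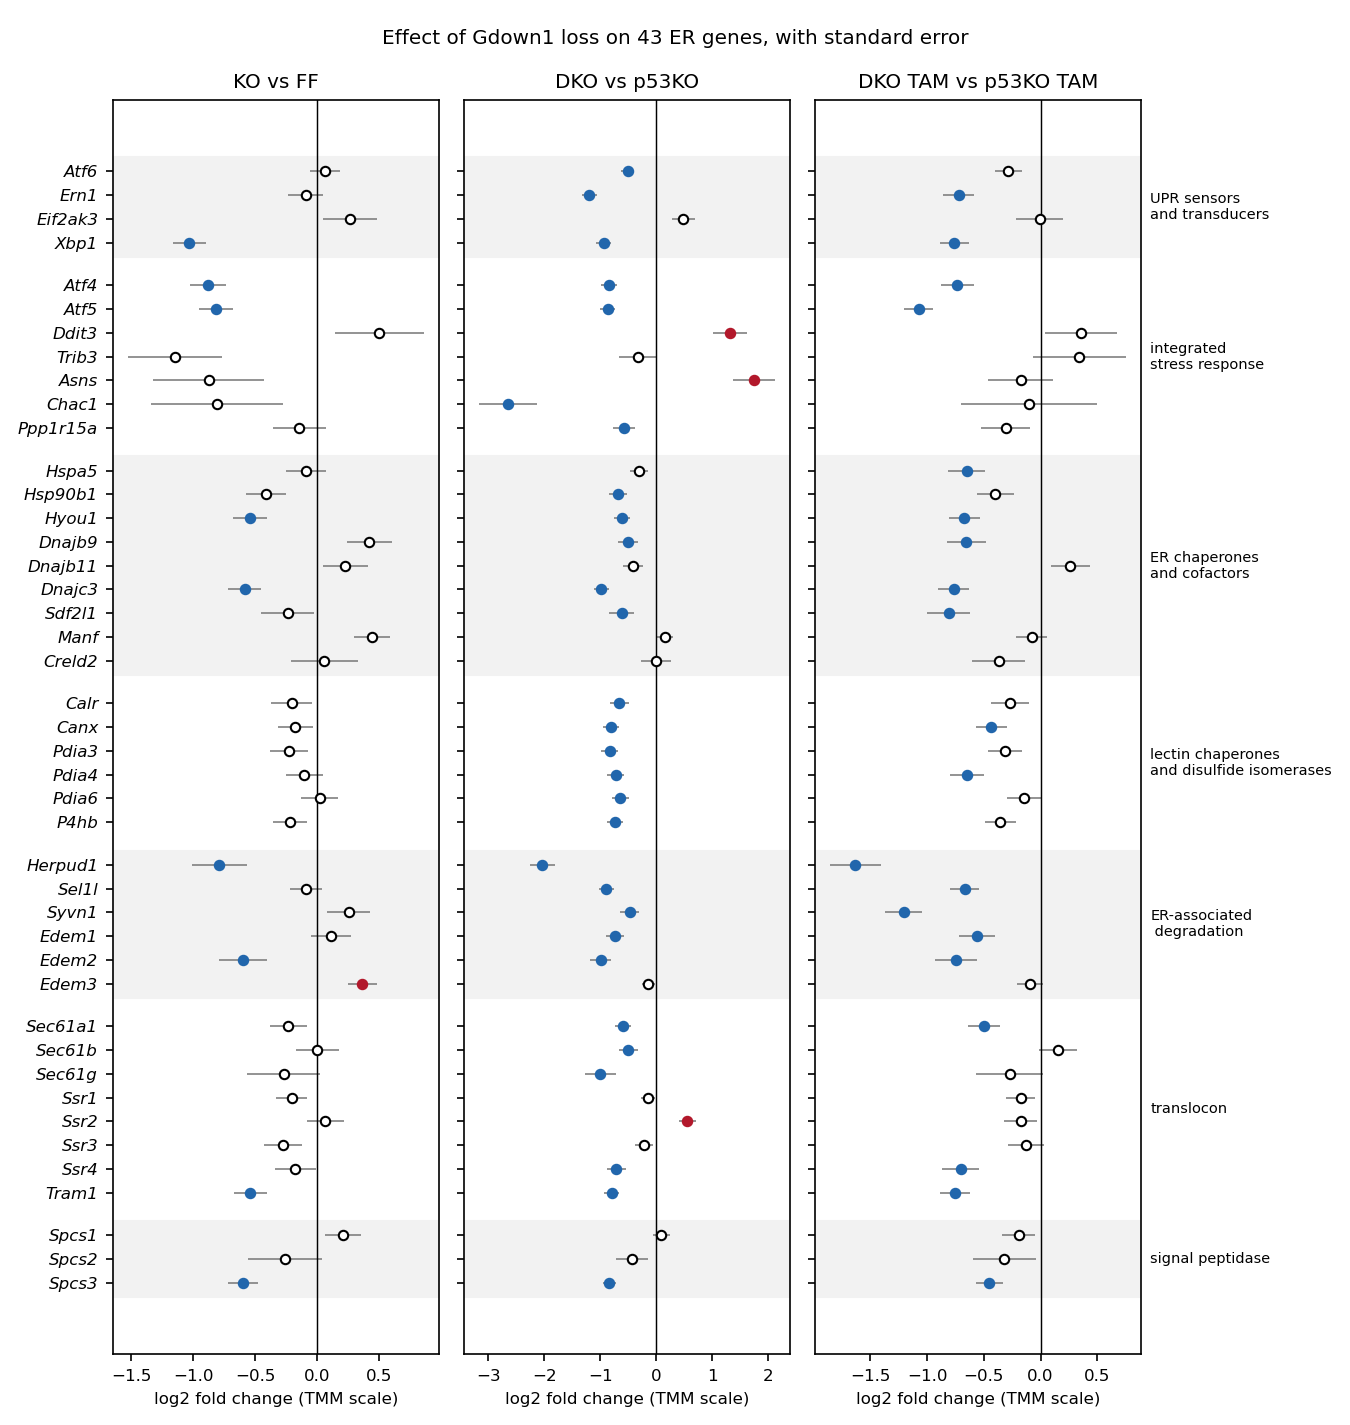
Log2 fold change with standard error (horizontal axis, a different range in each panel) of each of the 43 genes in the 3 comparisons of Gdown1 loss, grouped by role. Filled blue points are genes called lower (9, 29 and 20), filled red points genes called higher (1, 3 and 0), and open points genes not called.

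Among the sensors and transducers, Xbp1 was lower in all 3 comparisons. Xbp1 (chr11:5520641-5525993) stood at 173 and 141 CPM in FF against 73.7 and 79.6 in KO, at 177 and 189 in p53KO against 95.1 and 96.1 in DKO, and at 196 and 185 in p53KO TAM against 103 and 122 in DKO TAM. No deleted liver reached the level of any control liver. The log2 fold changes were -1.03 ± 0.13 (SE), -0.94 ± 0.13 and -0.76 ± 0.13 (edgeR adjusted p = 7.1e-05, 1.71e-05 and 0.000753). The DKO call of Xbp1 was lost with library totals alone (-0.17). Counts per gene do not separate the spliced from the unspliced mRNA.

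Ern1, the kinase and nuclease that splices Xbp1, differed between the experiments. Its level was 98.1 and 115 CPM in FF and 96.7 and 104 in KO, which overlap. It was 132 and 146 in p53KO and 63.5 and 58.1 in DKO, and 119 and 143 in p53KO TAM and 86.7 and 72.1 in DKO TAM, with no overlap in either pair. The log2 fold change was -1.19 ± 0.14 in DKO and -0.72 ± 0.14 in DKO TAM (edgeR adjusted p = 2.62e-06 and 0.00185), and -0.09 ± 0.14 in KO (adjusted p = 0.711). The effect in DKO was lower than that in KO by a test of the difference (-1.10 ± 0.20, edgeR adjusted p = 0.000997).

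The other sensors gave smaller values. Atf6 was lower in DKO alone of the 3 comparisons (-0.51 ± 0.12, edgeR adjusted p = 0.00201), and its value was 0.26 there with library totals alone. Eif2ak3 passed in none, with 0.26 ± 0.22 in KO, 0.48 ± 0.21 in DKO and -0.01 ± 0.21 in DKO TAM. The adjusted p in DKO was 0.0647, with 49.7 and 55.8 CPM in p53KO and 70.7 and 76.3 in DKO.

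The genes of the integrated stress response split. The transcription factors Atf4 and Atf5 were lower in all 3 comparisons, while of the genes that Atf4 is known to activate Asns and Ddit3 were higher and Chac1 lower in DKO. Atf4 (chr15:80255184-80257541) stood at 98.1 and 95.9 CPM in FF and 59.5 and 45.8 in KO, at 122 and 106 in p53KO and 59.3 and 67.6 in DKO, and at 94.4 and 106 in p53KO TAM and 56.7 and 63.8 in DKO TAM. The log2 fold changes of Atf4 were -0.88 ± 0.15, -0.85 ± 0.14 and -0.73 ± 0.14 (edgeR adjusted p = 0.000702, 9.92e-05 and 0.002). Every deleted liver was below every control liver. The calls of Atf4 in DKO and DKO TAM were lost with library totals alone (-0.08 and -0.38). Atf4 is controlled mainly at translation, which these counts do not show.

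Atf5, another factor translated under eIF2 phosphorylation, had its highest levels in the tamoxifen experiment. It stood at 149 and 133 CPM in FF against 70.5 and 89.6 in KO and at 113 and 116 in p53KO against 59.9 and 65.3 in DKO. In the tamoxifen experiment it stood at 425 and 399 in p53KO TAM against 189 and 202 in DKO TAM. Each pair was separate, with log2 fold changes of -0.81 ± 0.14, -0.87 ± 0.13 and -1.07 ± 0.13 (edgeR adjusted p = 0.000684, 5.01e-05 and 3.01e-05). The DKO call of Atf5 was lost with library totals alone (-0.10). Atf5 shares up to 82 exonic bases with genes of the other strand, and reads there cannot be assigned.

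Asns, asparagine synthetase, and Ddit3, the CHOP transcription factor, were higher in DKO alone of the 3 comparisons. Asns stood at 2.56 and 3.22 CPM in p53KO and 8.39 and 10.95 in DKO, a log2 fold change of 1.75 ± 0.37 (edgeR adjusted p = 0.000932). It was at 4.29 and 5.01 in FF and 1.02 and 4.23 in KO, and at 11.8 and 15.0 in p53KO TAM and 10.8 and 12.8 in DKO TAM. The level of Asns in DKO was thus above FF, KO and p53KO and near that of the TAM groups. Its effect in DKO exceeded that in KO by 2.63 ± 0.58 and that in DKO TAM by 1.93 ± 0.47 on the log2 scale (edgeR adjusted p = 0.00459 and 0.00689).

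Ddit3 stood at 4.78 and 3.43 CPM in p53KO and 10.2 and 10.6 in DKO (1.32 ± 0.31, edgeR adjusted p = 0.00197). The other groups lay between 3.43 and 7.62 CPM, and KO and FF overlapped. Its exons overlap those of Mars by 68 bases on the other strand, so that a few of its reads cannot be assigned.

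Chac1, a glutathione-degrading enzyme and a known target of Atf4 and CHOP, went the opposite way. It stood at 2.56 and 4.72 CPM in p53KO and 0.594 and 0.514 in DKO, which is 15 and 22 counts against 7 and 6. The log2 fold change of -2.65 ± 0.52 passed the test (edgeR adjusted p = 0.000475). Chac1 was also low in p53KO TAM, at 1.31 and 0.835 CPM, and in DKO TAM, at 0.729 and 1.38. Ppp1r15a, which directs the phosphatase that ends the response, was lower in DKO (-0.57 ± 0.19, edgeR adjusted p = 0.0187), but its value was 0.19 with library totals alone. That call was also lost with upper quartile scaling, with DESeq2, and without p53KO replicate 1 or DKO replicate 2. Trib3, a pseudokinase target of the same factors, passed in none of the 3 comparisons, with -1.15 ± 0.38 in KO (edgeR adjusted p = 0.0519).

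**Figure D3:**
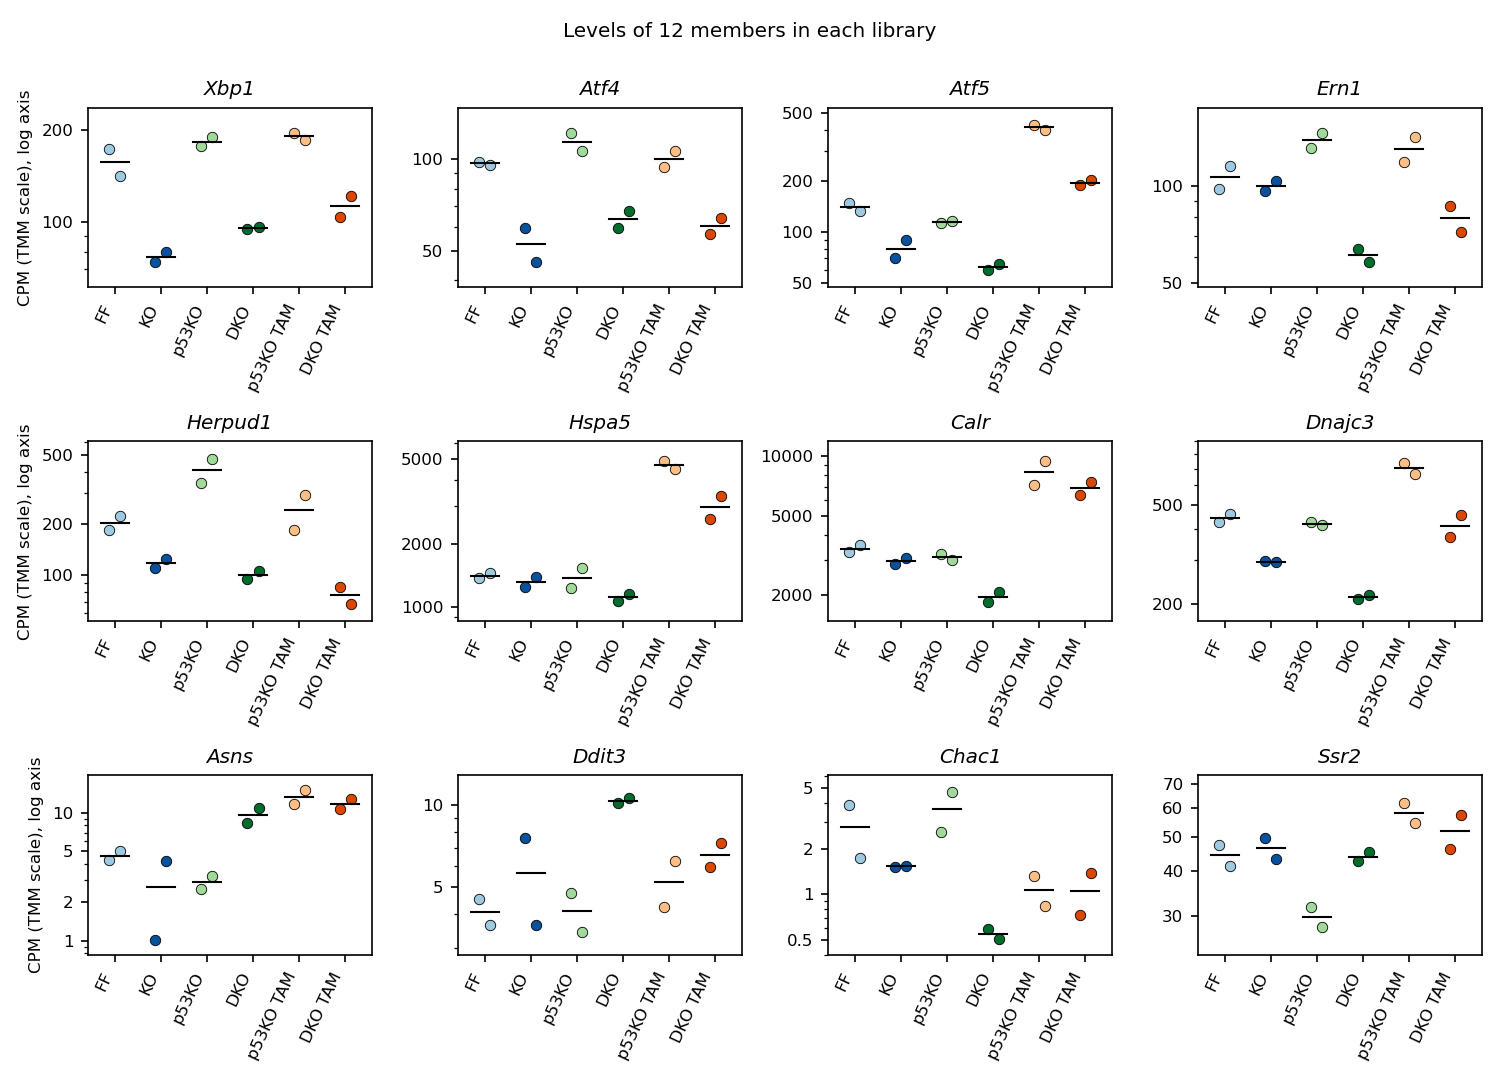
CPM on a log axis of 12 of the genes in each of the 12 libraries (points) with the group mean (bar). Xbp1, Atf4, Atf5, Herpud1 and Dnajc3 are lower in each deleted group than in its control, Ddit3 is highest in DKO, and Hspa5 and Calr stand highest in the TAM groups.

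ER chaperones and their cofactors were lower in part. In KO, 2 of 9 were lower, beside 7.88% of all tested genes. In DKO 5 of 9 were lower, beside 25.7%. With library totals alone, where 64.4% of all tested genes were higher, 4 of these 5 changed sign and Dnajc3 was no longer called. In DKO TAM 5 of 9 were lower, beside 10.1% of all tested genes, and none was higher in any of the 3 comparisons. Dnajc3 (chr14:118937932-118981702), a co-chaperone that also inhibits eIF2 kinases, stood at 426 and 461 CPM in FF against 297 and 295 in KO, at 427 and 414 in p53KO against 209 and 218 in DKO, and at 735 and 667 in p53KO TAM against 370 and 455 in DKO TAM. Its log2 fold changes were -0.58 ± 0.13, -0.98 ± 0.13 and -0.77 ± 0.13 (edgeR adjusted p = 0.0071, 1.42e-05 and 0.000827).

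Hspa5 (BiP, chr2:34772090-34776529), the chaperone that also holds the sensors inactive, was at 1377 and 1446 CPM in FF and 1250 and 1398 in KO. It was at 1232 and 1536 in p53KO and 1067 and 1161 in DKO, where the log2 fold change of -0.31 ± 0.16 missed the threshold (edgeR adjusted p = 0.118). In the tamoxifen experiment it was at 4896 and 4489 in p53KO TAM and 2627 and 3356 in DKO TAM (-0.65 ± 0.16, adjusted p = 0.0106). That last call was lost without p53KO TAM replicate 1 and without DKO TAM replicate 1, and with library totals alone.

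Hyou1, a large Hsp70-like chaperone, was lower in all 3 comparisons (-0.54 ± 0.14, -0.61 ± 0.14 and -0.67 ± 0.14), although its value in DKO was 0.16 with library totals alone. The KO call of Hyou1 was lost without FF replicate 2, KO replicate 1 or KO replicate 2. Hsp90b1 (GRP94) was at 3488 and 2985 CPM in p53KO and 1930 and 2102 in DKO, and passed there only (-0.68 ± 0.16, edgeR adjusted p = 0.00207; 0.08 with library totals alone). Sdf2l1, a partner of the ER Hsp40 proteins, and Dnajb9, an Hsp40 that represses Ern1, were lower in DKO and DKO TAM, with calls that were lost without single libraries in both. In DKO both changed sign with library totals alone, at 0.15 and 0.27.

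Manf, a secreted survival factor that binds Hspa5, did not follow. It was at 94.2 and 84.6 CPM in FF and 113 and 130 in KO (0.44 ± 0.14, edgeR adjusted p = 0.0501), at 75.1 and 79.6 in p53KO and 81.8 and 89.8 in DKO, and at 325 and 343 in p53KO TAM and 273 and 361 in DKO TAM. KO lay above FF without passing the test, and the TAM groups overlapped. The Hsp40 Dnajb11 and the ER disulfide protein Creld2 also passed in none of the 3 comparisons, with values of Creld2 at 0.06, -0.00 and -0.37.

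All 6 lectin chaperones and disulfide isomerases were lower in DKO, by -0.64 to -0.83 on the log2 scale, beside 25.7% lower of all tested genes. With library totals alone none of the 6 was called, beside 64.4% higher and 7.0% lower of all tested genes. There 4 of the 6 changed sign (values of 0.03 to 0.13), and Canx and Pdia3 were at -0.04 and -0.06. In KO none of the 6 passed, and in DKO TAM 2 were lower, Canx and Pdia4, beside 7.88% and 10.1% lower of all tested genes. The DKO TAM call of Canx was lost in 7 of 14 other settings, among them each omission of 1 of the 4 libraries and the replicate block. That of Pdia4 was lost without replicate 1 of either TAM group. Pdia3, which folds glycoproteins held by Calr and Canx, stood at 1516 and 1160 CPM in p53KO and 726 and 778 in DKO (-0.83 ± 0.16, edgeR adjusted p = 0.000292). It was at 1423 and 1364 in FF and 1216 and 1166 in KO (-0.23 ± 0.15, adjusted p = 0.363). KO lay below FF for Pdia3, by less than the test could call.

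Canx, the membrane-bound lectin chaperone, stood at 1105 and 903 CPM in p53KO and 559 and 591 in DKO (-0.80 ± 0.14, or -0.04 with library totals alone). Calr, its soluble relative, was at 3213 and 3003 in p53KO and 1851 and 2083 in DKO (-0.66 ± 0.17), and at 7127 and 9462 in p53KO TAM and 6360 and 7429 in DKO TAM, which overlap. Per kilobase of exon, Calr was the most abundant of the 43 genes in all 6 groups, from 1012 ± 84.5 CPM per kb in DKO to 4269 ± 850 in p53KO TAM (SD, n = 2). Hsp90b1 came next in all 6 groups, and Chac1 or Asns last.

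ER-associated degradation held the gene with the largest fall in DKO after the thinly counted Chac1. Herpud1 (chr8:94386500-94395358), a membrane protein that organises the degradation complex, stood at 183 and 221 CPM in FF against 111 and 123 in KO. It stood at 346 and 476 in p53KO against 94.6 and 105 in DKO, and at 182 and 295 in p53KO TAM against 85.3 and 68.1 in DKO TAM. In each pair both deleted livers were below both controls. The log2 fold changes were -0.79 ± 0.22, -2.04 ± 0.22 and -1.63 ± 0.23 (edgeR adjusted p = 0.0329, 1.13e-05 and 0.00044). The KO call of Herpud1 was lost when any 1 of the 4 libraries was left out. The effect in DKO was lower than that in KO by -1.25 ± 0.31 (adjusted p = 0.0134), a difference not passed without FF replicate 1 or KO replicate 2.

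Sel1l and Syvn1 form the core of the ubiquitin ligase that Herpud1 serves. Sel1l was at 320 and 337 CPM in p53KO and 178 and 176 in DKO, and at 750 and 634 in p53KO TAM and 408 and 462 in DKO TAM. Its log2 fold changes were -0.89 ± 0.13 and -0.67 ± 0.13 (edgeR adjusted p = 2.98e-05 and 0.00191), against -0.09 ± 0.13 in KO. Syvn1 was at 170 and 120 in p53KO TAM and 59.0 and 67.3 in DKO TAM (-1.20 ± 0.16, adjusted p = 9.13e-05). In DKO Syvn1 gave -0.48 ± 0.17 (adjusted p = 0.0254), but 0.29 with library totals alone. That call held in 7 of 14 other settings and was lost without p53KO replicate 2, DKO replicate 2 or DKO replicate 3. Syvn1 was thus lower in DKO TAM than in DKO relative to their controls, by a difference of effects of 0.73 ± 0.23 (adjusted p = 0.0283) that was not passed without DKO replicate 2 or 3, p53KO replicate 1, or replicate 1 of either TAM group.

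Among the Edem proteins, which pass misfolded glycoproteins to that ligase, Edem2 was lower in all 3 comparisons (-0.60 ± 0.19, -0.99 ± 0.19 and -0.74 ± 0.19). Its KO call had an edgeR adjusted p of 0.0465 and was lost in 9 of 14 other settings. Edem1 was lower in DKO and DKO TAM (-0.73 ± 0.16 and -0.56 ± 0.16) and was 0.04 in DKO with library totals alone. Its DKO TAM call was lost when any 1 of the 4 libraries was left out, and that of Edem2 without p53KO TAM replicate 2 or DKO TAM replicate 1. Edem3 was the only gene of the set called higher in KO (0.36 ± 0.12, adjusted p = 0.0462), and that call was lost when any 1 of the 4 libraries was left out.

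In the translocon, changes were uneven. Tram1, which helps chains enter the membrane, stood at 238 and 240 CPM in FF against 160 and 169 in KO, at 206 and 234 in p53KO against 122 and 131 in DKO, and at 290 and 245 in p53KO TAM against 144 and 173 in DKO TAM. Its log2 fold changes were -0.54 ± 0.13, -0.80 ± 0.13 and -0.76 ± 0.13 (edgeR adjusted p = 0.0114, 0.000104 and 0.000926). The KO call of Tram1 was lost without FF replicate 1, FF replicate 2 or KO replicate 1.

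The Sec61 channel subunits Sec61a1, Sec61b and Sec61g were all lower in DKO (-0.59 ± 0.15, -0.50 ± 0.17 and -0.999 ± 0.27), but the first 2 were 0.18 and 0.27 with library totals alone. Sec61g was -0.23 there and no longer called, and its call was also lost with the replicate block and without p53KO replicate 1. The DKO call of Sec61b held in 7 of 14 other settings and was lost without either p53KO library or DKO replicate 2. In DKO TAM only Sec61a1 passed (-0.50 ± 0.14, edgeR adjusted p = 0.0231), a call lost without either p53KO TAM library or DKO TAM replicate 1. The translocon-associated subunits diverged. Ssr2 stood at 31.8 and 27.9 CPM in p53KO and 42.6 and 45.3 in DKO (0.56 ± 0.15, adjusted p = 0.00534), while Ssr4 fell from 28.2 and 25.7 to 14.1 and 18.9 (-0.71 ± 0.17, adjusted p = 0.00191; 0.06 with library totals alone). Ssr1 and Ssr3 passed in none of the 3 comparisons, with values between -0.28 and -0.13.

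Of the signal peptidase subunits, Spcs3 was lower in all 3 comparisons. It stood at 148 and 144 CPM in FF against 93.7 and 99.2 in KO, at 150 and 162 in p53KO against 88.4 and 86.0 in DKO, and at 194 and 183 in p53KO TAM against 127 and 149 in DKO TAM. Its log2 fold changes were -0.60 ± 0.12, -0.84 ± 0.12 and -0.45 ± 0.12 (edgeR adjusted p = 0.00334, 2.5e-05 and 0.0147). Spcs1 and Spcs2, the accessory subunits, passed in none, with 0.21 ± 0.15 and -0.26 ± 0.30 in KO. The DKO TAM call of Spcs3 was lost without replicate 1 of either TAM group.

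Counted together, 9 genes were lower in all 3 comparisons (Xbp1, Atf4, Atf5, Hyou1, Dnajc3, Herpud1, Edem2, Tram1 and Spcs3), and these comparisons share no library. That is 20.9% of the set, beside 3.7% of all tested genes. Of these 9, Xbp1, Atf4, Atf5 and Spcs3 kept their KO call in all 14 other settings. Their DKO calls were lost with library totals alone, as were those of Dnajc3, Edem2 and Tram1, and Hyou1 changed sign there. Of the 9 only Herpud1 kept its DKO call in all 14 other settings, but its KO call did not hold. Another 10 (23.3%, beside 3.17%) were lower in DKO and DKO TAM and not called in KO. A further 10 (23.3%, beside 15.3%) were lower in DKO alone, among them Calr, Hsp90b1 and P4hb. Hspa5 was lower in DKO TAM alone, a pattern of 1.95% of all tested genes. Not called in any were 9 genes: Eif2ak3, Trib3, Dnajb11, Manf, Creld2, Ssr1, Ssr3, Spcs1 and Spcs2 (20.9%, beside 40% of all tested genes).

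Tests of the difference between effects bear on where they diverged. The effect in DKO was lower than in KO for 11 genes and higher for 1 (Asns), beside 12.9% lower and 9.75% higher of all tested genes. Of the 11, 5 belong to ER-associated degradation (Herpud1, Sel1l, Syvn1, Edem1 and Edem3), 3 are Canx, Pdia4 and Pdia6, and the others are Atf6, Ern1 and Dnajb9. Calls of this difference fell over all tested genes when single libraries were left out, so medians are given for those fits. The median difference was -0.39 for the set and -0.03 for all genes. It then ran from -0.47 (without FF replicate 1) to -0.31 (without FF replicate 2) for the set, and from -0.05 to 0.02 for all genes. With library totals alone Edem3 changed sign in this test and 1 gene was lower, beside 3.64% lower of all tested genes. Only Ern1 and Asns passed in all 18 other settings. The 2 experiments differ in p53 and in age, which cannot be told apart.

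The effects in DKO and DKO TAM differed for 4 genes, with Asns, Syvn1 and Ssr2 higher and Chac1 lower in DKO, beside 13.4% higher and 14.2% lower of all tested genes. These 2 comparisons share no library. Of the 4, only Asns passed in all 18 other settings. Here too calls fell over all tested genes when single libraries were left out. The median difference of the set was -0.12, beside -0.03 for all genes. It ran from -0.26 (without DKO TAM replicate 1) to -0.04 (without DKO TAM replicate 2) in those fits.

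The machinery was then set against its cargo within each library, a ratio that no scaling between libraries can move. The 43 genes held 1.57 and 1.54% of all counts in FF and 1.57 and 1.56% in KO, 1.42 and 1.34% in p53KO and 1.44 and 1.55% in DKO, and 3.05 and 3.12% in p53KO TAM and 2.67 and 3.22% in DKO TAM. The shares overlapped in the first and the third pair, and DKO lay just above p53KO. The 48 plasma protein genes held 21.6 and 20.5% in FF and 15.7 and 16.6% in KO, 20.0 and 20.5% in p53KO and 10.3 and 10.7% in DKO, and 26.0 and 25.8% in p53KO TAM and 15.4 and 17.9% in DKO TAM. Here each deleted pair lay below its controls.

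As a percentage of the plasma protein sum, the ER genes were higher in each deleted group than in its control, without overlap. Such a rise comes to any genes whose share of all counts stays level while the plasma protein share falls. It is not by itself particular to the ER genes. The ratio was 7.38 ± 0.158% in FF and 9.68 ± 0.390% in KO, 6.84 ± 0.381% in p53KO and 14.2 ± 0.271% in DKO, and, with tamoxifen, 11.9 ± 0.264% in p53KO TAM against 17.7 ± 0.537% in DKO TAM (SD, n = 2). That is 1.31, 2.08 and 1.48 times the control value. Alb weighs heavily in the plasma protein sum. On the TMM scale that sum was 0.645, 0.306 and 0.505 times the control, and 0.697, 0.331 and 0.591 times without Alb. The ratio therefore rises less when Alb is left out. With 2 libraries against 2, a two-sided exact permutation test cannot go below p = 0.333, so the groups are described without a test. By role, the factor in DKO ran from 1.67 for ER-associated degradation to 2.62 for the translocon, and the groups did not overlap for any of the 7 roles. The integrated stress response was at 0.921 times the control in KO and 1.05 times in DKO TAM. The ratio rests mainly on 5 genes (Calr, Hsp90b1, Hspa5, Pdia3 and P4hb), which held 63.1 to 74.0% of the summed ER counts as group means.

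**Figure D4:**
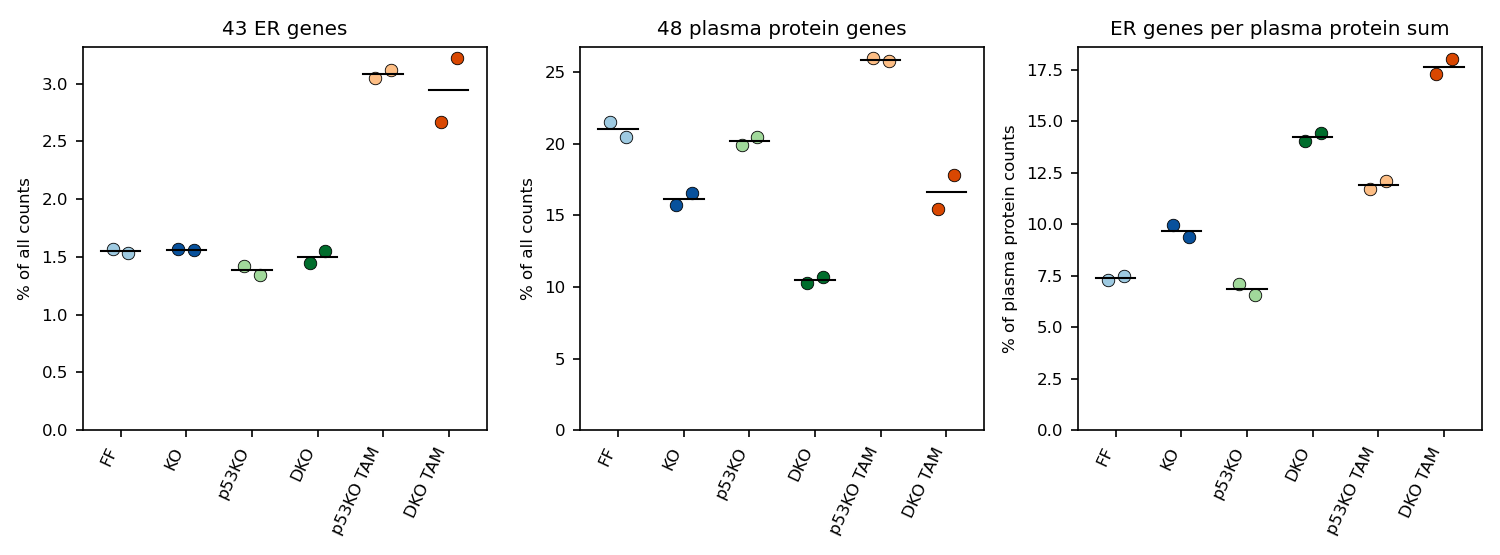
Share of all counts held by the 43 ER genes (left) and by 48 plasma protein genes (middle), and the first as a percentage of the second (right), for each library (points) with group means (bars). The middle panel falls with deletion while the left one hardly moves, so the ratio is higher in each deleted group than in its control.

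Gene by gene, the plasma proteins were lower in 22 of 48 cases in KO, 47 of 48 in DKO and 38 of 48 in DKO TAM, with medians of -0.46, -1.62 and -0.81. With library totals alone these counts were 16, 38 and 26. Of the 43 ER genes, 41 lay above the plasma protein median in DKO (95.3%, beside 95.7% of all tested genes), and Chac1 and Herpud1 lay below it. In KO 31 (72.1%, beside 83.8%) and in DKO TAM 40 (93.0%, beside 91.8%) lay above it. These shares are near or below those of all tested genes.

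Markers of cell types moved too. All 8 hepatocyte markers were lower in DKO (7 with library totals alone), 6 of 8 in KO (4 with library totals alone) and 5 of 8 in DKO TAM (3 with library totals alone). Alb, Apoa1, Ttr and Serpinc1 among them also belong to the plasma protein list. The fall of these markers is therefore not a reading separate from that list. In DKO, 5 of 5 tested cholangiocyte, 6 of 6 macrophage and 7 of 7 stellate and fibroblast markers were higher, and of 6 endothelial markers 2 were higher and 2 lower. The stellate sum was 142 to 151 CPM in p53KO and 840 to 894 in DKO. In KO 1 stellate and 1 endothelial marker were higher. In DKO TAM 3 of 6 endothelial markers and 1 stellate marker were lower, and 1 cholangiocyte and 1 macrophage marker were higher. Of 8 plasma and B cell markers, 4 could be read, and the immunoglobulin genes Igkc, Ighm and Igha and the joining chain Jchain were not analysed here. Tnfrsf17 was at 0 in every library, and the 4 genes summed to 0.854 to 2.36 CPM in p53KO, 16.9 to 24.0 in p53KO TAM and 6.46 to 9.76 in DKO TAM. Of these, Derl3, itself an ER degradation gene, made 22.7 in the highest library. The part of the cell mix in these results was not tested.

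Further genes of the same pathways were read from 4 lists of 110 tested genes. In KO 13 were higher and 6 lower (11.8% and 5.45%, beside 6.92% and 7.88% of all tested genes). In DKO 23 were higher and 49 lower (20.9% and 44.5%, beside 25.7% each way). In DKO TAM 6 were higher and 25 lower (5.45% and 22.7%, beside 8.61% and 10.1%). Other ER folding genes leaned lower, with 14 of 28 lower in DKO and 12 of 28 in DKO TAM, including the cargo receptor Lman1 (-1.01 ± 0.12 and -0.51 ± 0.12). Other degradation genes were lower in 13 of 20 cases in DKO, such as the lectin Os9 (-1.13 ± 0.15) and Derl2 (-0.95 ± 0.13), and in 4 of 20 in DKO TAM. Other translocation genes were lower in 13 of 27 in DKO, such as Sec63 (-0.98 ± 0.12) and the signal recognition particle receptor Srpr (-0.97 ± 0.12). On the TMM scale 25.7% of all tested genes were lower in DKO and 10.1% in DKO TAM. With library totals alone, where 64.4% of all tested genes were higher in DKO and 7.0% lower, 12 of 28 folding genes were higher and 4 lower, 7 of 20 degradation genes higher and 1 lower, and 15 of 27 translocation genes higher and none lower. In DKO TAM by that scaling, beside 31.7% higher and 4.28% lower of all tested genes, 6 folding genes were higher and none lower, and 6 degradation genes higher and 1 lower.

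Other stress response genes went the opposite way in DKO, with 17 of 35 higher and 9 lower, beside 25.7% each way of all tested genes, or 26 and none with library totals alone. Among the higher were the serine synthesis enzyme Psat1 (5.71 against 0.622 CPM as group means, 3.27 ± 0.53), the mitochondrial folate enzyme Mthfd2 (9.37 against 2.59 CPM, 1.82 ± 0.30) and Vldlr (17.0 against 2.72 CPM, 2.66 ± 0.31). In KO 6 of 35 were higher, including Sesn2 (13.8 against 3.60 CPM) and Ddit4 (11.9 against 1.65 CPM), both also known as p53 targets. In DKO TAM 5 of 35 were higher and 2 lower, beside 8.61% and 10.1% of all tested genes. Eif2s1, which encodes the eIF2 subunit that the kinases phosphorylate, was higher in all 3 comparisons (0.86 ± 0.13, 0.52 ± 0.12 and 0.78 ± 0.12).

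The tamoxifen experiment stood apart in its controls. This comparison was chosen after the levels were seen, and it shares the p53KO libraries with DKO against p53KO. In p53KO TAM against p53KO, 21 of the 43 genes were higher and 4 lower, beside 7.55% higher and 8.22% lower of all tested genes, with a median of 0.43 against 0.00 for all genes. The libraries were apart, with p53KO TAM above p53KO, for 30 genes and below for 6, beside 27.7% of all tested genes each way. The 2 groups differ in tamoxifen, in experiment and perhaps in age, which cannot be told apart.

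Of the 21 higher genes, 13 were folding genes: 8 of the 9 ER chaperones and cofactors and 5 of the 6 lectin chaperones and isomerases. The others were 3 of 6 ER-associated degradation genes, 2 of 8 translocon genes, 2 of 7 integrated stress response genes and 1 of 3 signal peptidase genes. The roles were not tested against each other. Creld2 was at 116 and 83.5 CPM in p53KO TAM and 25.3 and 17.2 in p53KO (2.22 ± 0.26, edgeR adjusted p = 0.000203), Manf was higher by 2.11 ± 0.15 and Sdf2l1 by 2.05 ± 0.21. Hspa5 was higher by 1.76 ± 0.17, Hyou1 by 1.81 ± 0.14 and Pdia4 by 1.69 ± 0.15. None of the 4 sensors and transducers passed, Xbp1 included (0.06 ± 0.13). Herpud1, Chac1, Trib3 and Ppp1r15a were the 4 lower genes (-0.79 ± 0.22, -1.67 ± 0.53, -1.26 ± 0.40 and -1.18 ± 0.21), while Asns was higher by 2.21 ± 0.38. When single libraries were left out, not all 4 lower calls held, and calls fell over all tested genes. The median of the set then ran from 0.44 (without p53KO TAM replicate 2) to 0.54 (without p53KO replicate 1).

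**Figure D5:**
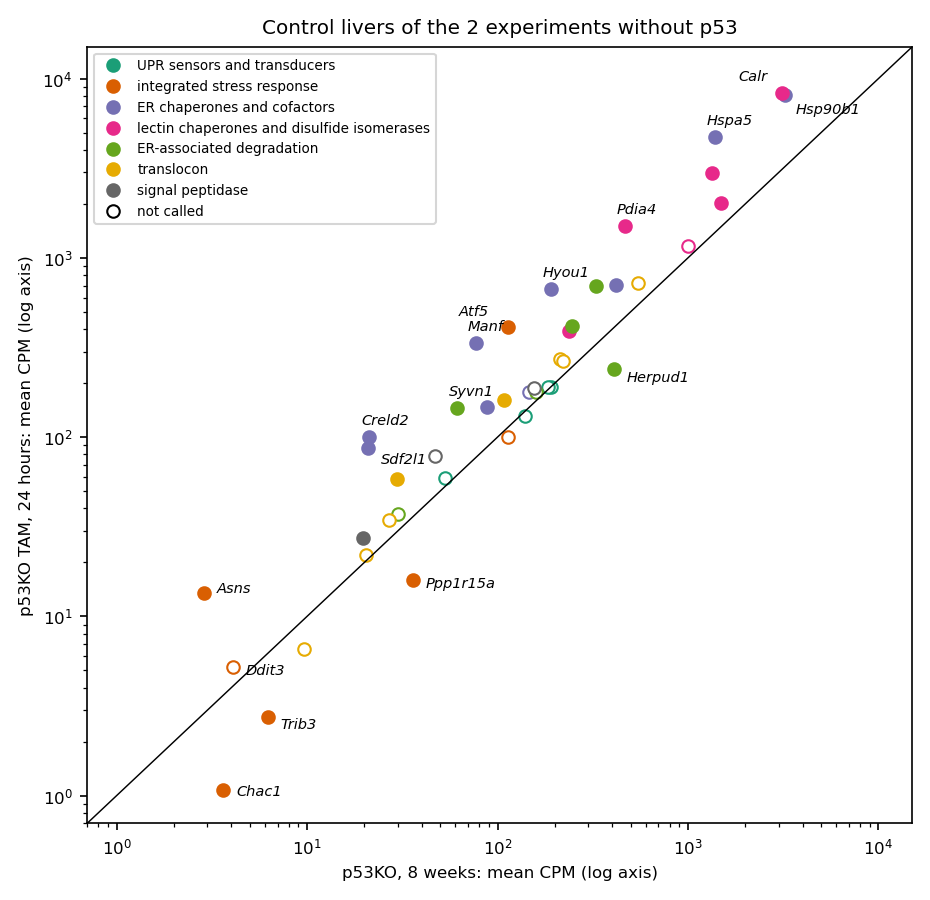
Mean CPM of each of the 43 genes in p53KO TAM (vertical, log axis) against p53KO at 8 weeks (horizontal, log axis), coloured by role; filled points passed the test and the line marks equal levels. Chaperones such as Hspa5, Creld2 and Manf lie above the line, and Herpud1, Ppp1r15a, Trib3 and Chac1 below it.

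Of the 8 genes with the long ER stress element in their promoter, 7 were higher in p53KO TAM than in p53KO, with a median of 1.28. Of the 28 genes without it 10 were higher, with a median of 0.33, beside 7.55% of all tested genes. All of the 8 but Syvn1 belong to the folding roles described above, so the split by element largely repeats the split by role. The same 8 genes gave 6 lower in DKO (median -0.65), against 18 of 28 without it (median -0.66), beside 25.7% of all tested genes. Of the 4 genes with an amino acid response element, Asns was higher and Chac1 and Herpud1 lower in DKO, and Trib3 passed in neither direction. These are counts of a few genes and were not tested.

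Few single genes of the set passed the test between the controls with and without p53. In p53KO against FF, 1 of the 43 genes was higher and none lower, beside 0.592% and 0.27% of all tested genes, and 13 genes (30.2%) had an unadjusted p under 0.05, beside 11.7% of all tested genes. The p53KO libraries lay above both FF libraries for 13 genes and below for 15, beside 19.6% and 20.9% of all tested genes. Dnajb9 was at 78.9 and 72.5 CPM in FF and 131 and 163 in p53KO (0.95 ± 0.18, edgeR adjusted p = 0.017). The call was lost without FF replicate 1 or FF replicate 2, and DESeq2 called 2 genes higher and 1 lower. Herpud1 gave 1.02 ± 0.22 with an adjusted p of 0.0582. The groups also differ in age, and they share libraries with the comparisons above.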

How the data were processed

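RNA of mouse liver was sequenced in 12 libraries, 2 for each of 6 groups. The authors deposited unnormalised whole-number read counts for 23420 genes. Per the submitters' processing notes, CASAVA 1.82, HISAT2, featureCounts and the build mm10 (GRCm38) were used, and per the file headers of the 4 libraries of 7 weeks featureCounts 1.6.4 counted exons by gene. Those headers name no strand option, so reads of overlapping genes cannot be told apart (Atf5, Ddit3, Pdia4, Pdia6, Syvn1 and Spcs1 overlap others).

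Testing used edgeR 4.0.16 in R 4.3.3. Genes were kept by filterByExpr (at least 10 counts), libraries scaled by TMM, and a single model with a mean for each group fitted to the 12 libraries, leaving 6 residual degrees of freedom, with robust quasi-likelihood F tests. Adjustment (Benjamini-Hochberg) ran over the 13693 genes kept, which held 99.9% of counts. Each standard error is the log2 fold change over the root of its F value. SD is over 2 libraries, and 3 counts in a library, the most that a count of 0 allows at 95% confidence, are 0.254 to 0.677 CPM. Libraries were grouped by their titles, which number the DKO libraries 2 and 3. Replicates of a group differed by more than counting noise, and no library was left out. The tests were tested on simulated data.

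The members, lists and comparisons were chosen with earlier results of these data known. All 43 members could be named, and of the other lists up to 4 genes per comparison with the smallest p among those called. Alternatives were RLE and upper quartile factors, library totals, TMM without plasma protein, mitochondrial and haemoglobin genes, no filter, 1 CPM in 2 libraries, DESeq2 1.42.0, limma-voom (limma 3.58.1), a fit of only the groups in question, replicate number as a block, omission of single libraries, a 1.5-fold minimum and a threshold of 0.01 on the adjusted p. Promoters are RefSeq entries of GRCm38.p6; 35 of the 37 entries start within 100 bases of the counted gene. Manf, Atf6, Tram1, Sec61a1, Hyou1, Ssr2 and Spcs3 had no entry.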

Additional observations from a re-analysis of the deposited data

Results flagged for a closer look

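The effect of Gdown1 loss differed between DKO against p53KO and KO against FF, by edgeR's test of the difference itself, for 12 genes of the set. That is 27.9% of the set, beside 22.7% of all tested genes. The difference of log2 fold changes was -0.57 for Atf6, -1.10 for Ern1, 2.63 for Asns, -0.92 for Dnajb9, -0.63 for Canx, -0.62 for Pdia4, -0.66 for Pdia6, -1.25 for Herpud1, -0.80 for Sel1l, -0.73 for Syvn1, -0.84 for Edem1 and -0.50 for Edem3. The largest adjusted p among them was 0.0456, for Pdia4. Of the 12, only Ern1 and Asns passed in all 18 other settings. All but Asns were lower in DKO relative to its control than in KO.

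The effect also differed between DKO against p53KO and DKO TAM against p53KO TAM for 4 genes. They make up 9.30% of the set, a smaller share than the 27.6% of all tested genes. The difference of log2 fold changes was 1.93 for Asns, -2.55 for Chac1, 0.73 for Syvn1 and 0.73 for Ssr2. Chac1 rests on 4 to 22 counts per library over all groups. The pairs compared differ in age or treatment as well as in genotype, and what sets them apart was not tested.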

How the results depend on the processing

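The direction of the set depends on how libraries are set against each other. With library totals alone the genes called lower were 4 in KO against FF, 3 in DKO against p53KO, 7 in DKO TAM against p53KO TAM and 1 in p53KO against FF, and those called higher 4, 11 and 2 in the first 3 of these, where 20.0%, 64.4% and 31.7% of all tested genes were higher. There the log2 fold change in DKO changed sign for Atf6 (0.26), Ppp1r15a (0.19), Hsp90b1 (0.085), Hyou1 (0.16), Dnajb9 (0.27), Sdf2l1 (0.15), Calr (0.11), Pdia4 (0.045), Pdia6 (0.13), P4hb (0.032), Syvn1 (0.29), Edem1 (0.037), Sec61a1 (0.18), Sec61b (0.27) and Ssr4 (0.057). The difference between DKO and KO changed sign for Edem3 (0.0089). By that scaling 4 genes had a higher and 1 a lower effect in DKO than in KO, beside 26.2% and 3.64% of all tested genes. Against DKO TAM 9 had a higher and 0 a lower effect in DKO, beside 24.7% and 4.88%. With upper quartile scaling 2 genes were higher in KO, 5 higher in DKO, 1 lower in p53KO TAM against p53KO, and 2 had a higher and 3 a lower effect in DKO than in KO. Over all tested genes these counts went from 947 to 1028, 3516 to 4662, 1125 to 775, 1335 to 1851 and 1772 to 1077. The cause was not tested. RLE factors and TMM without plasma protein genes gave counts within 1.5 times those reported.

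DESeq2 called 0 genes higher in KO, 2 higher and 1 lower in p53KO, 2 lower in p53KO TAM, and 0 with a lower effect in DKO than in DKO TAM. Over all tested genes it called 698 higher in KO (947 with edgeR), and 126 higher and 55 lower in p53KO (81 and 37). It called 921 lower in p53KO TAM (1125 with edgeR), and 1466 with a lower effect in DKO than in DKO TAM (1951). limma-voom and the fit of only the libraries compared each called 2 higher in KO, and the latter 2 higher in p53KO. Without a filter 2 were higher in p53KO and 2 had a lower effect in DKO than in DKO TAM (3 with 1 CPM in 2 libraries). At an adjusted p under 0.01, KO had 0 higher and 5 lower, DKO TAM 13 lower, p53KO 0 higher and p53KO TAM 1 lower, 2 genes had a lower effect in DKO than in KO, and 1 had a higher and 0 a lower effect in DKO than in DKO TAM. With a 1.5-fold minimum 0 were higher in KO. At these 2 stricter thresholds only the set was counted.

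Titles number the libraries, but same-numbered libraries did not deviate together (correlations of 0.11, 0.07 and -0.01 in the 3 pairs, over at most 2 shared numbers). With the replicate number as a block, 0 genes were higher and 8 lower in KO, 3 and 25 in DKO, 0 and 19 in DKO TAM, 2 and 0 in p53KO, 1 had a higher and 5 a lower effect in DKO than in KO, and 1 and 0 in DKO than in DKO TAM. Over all tested genes the block took the lower calls from 1079 to 963 in KO, from 3525 to 2567 in DKO and from 1380 to 1238 in DKO TAM. Genes with a lower effect in DKO than in KO went from 1772 to 1014.

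Leaving out each library in turn gave 5 to 7 lower and 0 higher in KO, 24 to 27 lower and 2 to 3 higher in DKO, 10 to 20 lower and 0 higher in DKO TAM, 0 to 1 higher in p53KO, and 17 to 19 higher and 1 to 3 lower in p53KO TAM. It gave 3 to 9 genes with a lower effect in DKO than in KO, and 1 to 3 with a higher and 0 to 4 with a lower effect than in DKO TAM. Depth limits Chac1, Asns, Ddit3 and Trib3, some of whose libraries hold under 20 counts.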
